A study of Saccharomyces cerevisiae with 13 samples.

Results

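The genes described are 6 budding yeast genes of copper entry and its neighbours in metal uptake: CTR1, CTR2, MAC1, FRE1, FRE7 and FET4. They were taken by name, as copper transporters, the copper regulator MAC1, the metalloreductases FRE1 and FRE7 and the low-affinity transporter FET4, out of 5449 genes measured, and each had 1 probe set on the array. They were selected on the log2 intensities of the isopropanol cultures against time zero, where CTR1, FRE1, FRE7 and FET4 were higher, so that contrast is given for them as a description, with no p-value.

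Yeast reduces copper and iron at the cell surface before taking them up, which is the work of the Fre metalloreductases. Ctr1 is the high-affinity copper transporter of the plasma membrane, and Ctr2 is a transporter of the same family in the vacuole membrane that releases stored copper. Mac1 is the copper-sensing transcription factor that switches on CTR1, FRE1 and FRE7 when copper is scarce, and Fet4 is a low-affinity transporter of iron that also carries copper and zinc.

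All 13 arrays came from BY4741, a haploid MATa laboratory strain, grown to saturation at 30°C in YPGE, a rich medium whose carbon sources, glycerol and ethanol, must be respired. Cultures were exposed to 0.05 mM TFM for 1, 2 or 4 h (2 arrays at each time), or to 2% isopropanol for 1, 2 or 4 h (2, 1 and 2 arrays), and 2 arrays were taken at time zero, before any exposure. The second isopropanol RNA of 2 h was lost to poor quality, the labels do not spell out TFM or say how much isopropanol its cultures received, and the time zero arrays also carry the isopropanol label. The pairs of arrays are independent RNA samples, but nothing says that they came from separate cultures, so p-values measure how far such RNA samples spread, and that spread may be technical only. In such bulk RNA, fewer cells of a kind and less RNA per cell cannot be told apart.

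Values are the authors' log2 RMA intensities, and they are compared only within a gene. Replicate arrays correlated at 0.992 to 0.998 over 5449 genes. The lowest value of any of the 6 genes, 8.36 for FRE7, lay above the highest mean of the 15 bacterial control probe sets, 5.91. LEU2, MET17 and URA3, which BY4741 lacks, averaged 5.64, 5.53 and 4.89, inside the range of those controls, while HIS3, of which the strain lacks only a part, averaged 11.5. The difference between 3′ and 5′ probe sets of 7 control transcripts, a measure of RNA integrity, was 1.63 and 1.40 in the TFM arrays of 4 h, against 1.15 and 1.13 in the isopropanol arrays of 4 h. At 2 h it was 1.18 and 1.49 in TFM, against 1.14 in isopropanol, and at 1 h it was 1.32 and 1.39 in TFM, against 1.42 and 1.34 in isopropanol. It was 1.19 and 1.21 at time zero.

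CTR1 was higher in isopropanol cultures than at time zero, was near its time zero level during the early hours of TFM, and was lowest after 4 h of TFM. Its log2 intensity was 12.26 and 12.21 after 1 h of isopropanol, 12.84 after 2 h and 12.37 and 12.61 after 4 h, against 11.99 and 11.90 at time zero. Its TFM arrays read 11.81 and 11.98 (1 h), 12.07 and 11.95 (2 h) and 11.51 and 11.46 (4 h). All 5 isopropanol arrays thus lay above all 6 TFM arrays and above both time zero arrays. In the order of group means, isopropanol of 2, 4 and 1 h came first without overlap, then TFM of 2 h, time zero and TFM of 1 h, which overlapped one another, and last TFM of 4 h.

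FRE7 encodes a surface reductase that Mac1 induces, and it showed the widest gap of the 6 genes in a single isopropanol culture. It stood at 8.52 and 8.70 after 1 h of isopropanol, 9.66 after 2 h and 8.85 and 9.50 after 4 h, against 8.45 and 8.49 at time zero. Its TFM arrays read 8.36 and 8.60 (1 h), 8.81 and 8.59 (2 h) and 8.80 and 8.51 (4 h). The isopropanol arrays of 2 and 4 h lay above every other array, and the TFM groups, the isopropanol group of 1 h and time zero were neighbours that overlapped. Its isopropanol replicates of 4 h differed by more than any other pair of these genes in that medium, and FRE7 had the largest residual SD of the 6, 0.232.

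FRE1, the main surface reductase for ferric iron and copper, varied least, over 0.457 log2 units between group means. It was 10.95 and 10.90 after 1 h of isopropanol, 10.93 after 2 h and 10.84 and 10.95 after 4 h, against 10.57 and 10.46 at time zero. Its TFM arrays read 10.70 and 10.59 (1 h), 10.69 and 10.78 (2 h) and 10.98 and 10.97 (4 h). Isopropanol groups overlapped one another and lay above both time zero arrays. All 6 TFM arrays also lay above both time zero arrays, and those of 4 h lay above every isopropanol array.

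FET4 moved in both arms. It was 10.01 and 9.93 after 1 h of isopropanol, 10.52 after 2 h and 10.27 and 10.32 after 4 h, against 9.87 and 9.96 at time zero. Under TFM it was 9.51 and 9.48 at 1 h and 9.55 and 9.45 at 2 h, and then 10.54 and 10.45 at 4 h. The 4 TFM arrays of 1 and 2 h were the lowest of all 13, whereas the TFM arrays of 4 h lay with the isopropanol array of 2 h at the top.

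MAC1 stood apart from time zero after 4 h of TFM, and CTR2 was below time zero at each hour of TFM and after 1 h of isopropanol. MAC1 was 11.29 and 11.26, 11.45 and 11.14, and 12.15 and 12.14 after 1, 2 and 4 h of TFM. It was 11.23 and 11.32, 11.46, and 11.41 and 11.39 after 1, 2 and 4 h of isopropanol, against 11.43 and 11.44 at time zero. The 11 arrays other than TFM of 4 h spanned 11.14 to 11.46, so the TFM arrays of 4 h stood clear above them. CTR2 was 12.60 and 12.54, 12.44 and 12.31, and 11.91 and 12.26 after 1, 2 and 4 h of TFM, and 12.54 and 12.57, 12.78, and 12.69 and 12.81 after 1, 2 and 4 h of isopropanol, against 12.73 and 12.82 at time zero. The TFM arrays of 4 h were the lowest of the 13 for CTR2 and those of 2 h were the next lowest.

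**Figure D1:**
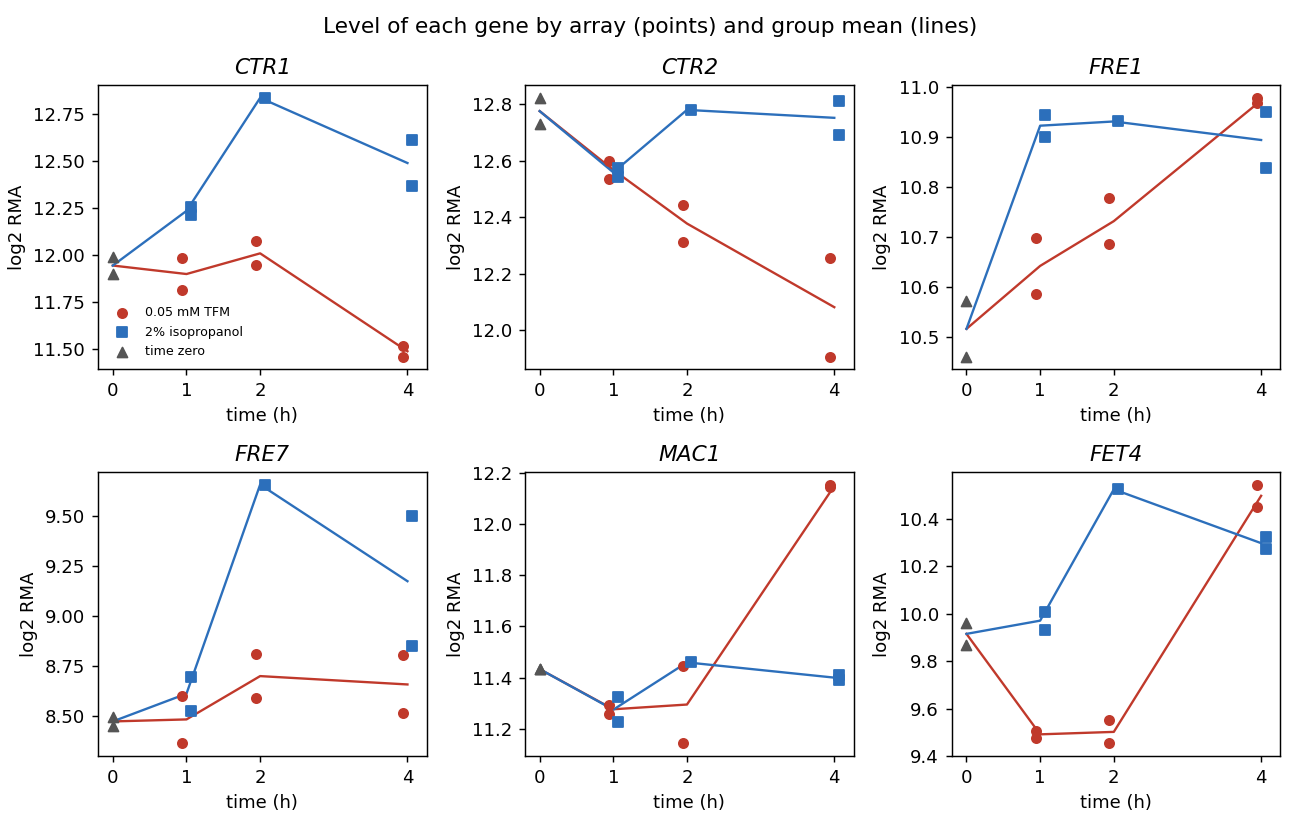
Log2 RMA intensity (vertical axis, 1 panel a gene with its own range) of the 6 genes against hours of exposure (horizontal axis), with each point 1 array and lines joining group means of TFM, isopropanol and time zero. CTR1 and FRE7 are highest in the isopropanol array of 2 h, at 12.84 and 9.66, and MAC1 is highest in both TFM arrays of 4 h.

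Set against time zero, isopropanol cultures had more signal for the Mac1 targets CTR1, FRE1 and FRE7 and for FET4, which the choice of genes fixed. CTR1 was higher by 0.29, 0.90 and 0.55 log2 units after 1, 2 and 4 h, and FRE1 by 0.41, 0.41 and 0.38. FRE7 was higher by 0.14, 1.19 and 0.70, and FET4 by 0.06, 0.61 and 0.38. CTR2 differed by -0.22, 0.00 and -0.02 and MAC1 by -0.16, 0.03 and -0.03 at the same times. Standard errors of these differences at 1 and 4 h ran from 0.070 for FET4 to 0.19 for FRE7, and those of 2 h assume that the lone array varies like the other groups.

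In size, FRE7, CTR1, FET4 and FRE1 held ranks 4, 9, 14 and 29 among 5449 genes ordered by how far they were higher after 2 h of isopropanol, and ranks 1, 4, 8 and 9 after 4 h. After 1 h the same genes in that order held ranks 728, 164, 1686 and 66. Over all 5449 genes, 0 percent passed limma's adjusted p of 0.05, the threshold used throughout, in any of these contrasts, and 367, 111 and 67 genes had an unadjusted p under 0.05 at 1, 2 and 4 h. CTR1, FRE1 and FRE7, 3 of the 6 genes, had all 5 isopropanol arrays above both time zero arrays, as did 104 genes or 1.91 percent of all genes. CTR1 and FRE7 also had their highest value of all 13 arrays in the isopropanol array of 2 h, as did 227 genes or 4.17 percent. The 4 h values of FRE7 and CTR1 rest on 1 array each way: without isopropanol replicate 2 of 4 h they were 0.38 and 0.43, and without replicate 1 they were 1.03 and 0.67. These contrasts chose the genes and nothing is read from the counts.

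The other 3 listed Mac1 targets were looked at in the same arrays. REE1, a cytosolic protein linked to the regulation of enolase, was 13.16 and 13.22 after 1 h of isopropanol, 13.45 after 2 h and 13.27 and 13.33 after 4 h, against 13.08 and 13.12 at time zero. CTR3, a second high-affinity copper transporter whose promoter is broken by a transposon in many laboratory strains, was 10.08 and 10.06, 10.20, and 10.03 and 10.17 after 1, 2 and 4 h of isopropanol, against 9.89 and 9.97 at time zero. REE1 and CTR3 thus had all 5 isopropanol arrays above time zero, as did 1.91 percent of all genes. The 6 TFM arrays of CTR3, from 10.10 to 10.23, also lay above time zero. So did the REE1 arrays of 4 h of TFM, at 13.27 and 13.40, while those of 1 and 2 h, from 12.87 to 13.07, did not. IRC7, a cysteine desulfhydrase gene, did not have all 5 isopropanol arrays above time zero. Its arrays read 8.75 and 8.84, 9.39, and 8.95 and 9.33 after 1, 2 and 4 h of isopropanol, against 8.93 and 9.16 at time zero.

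**Figure D2:**
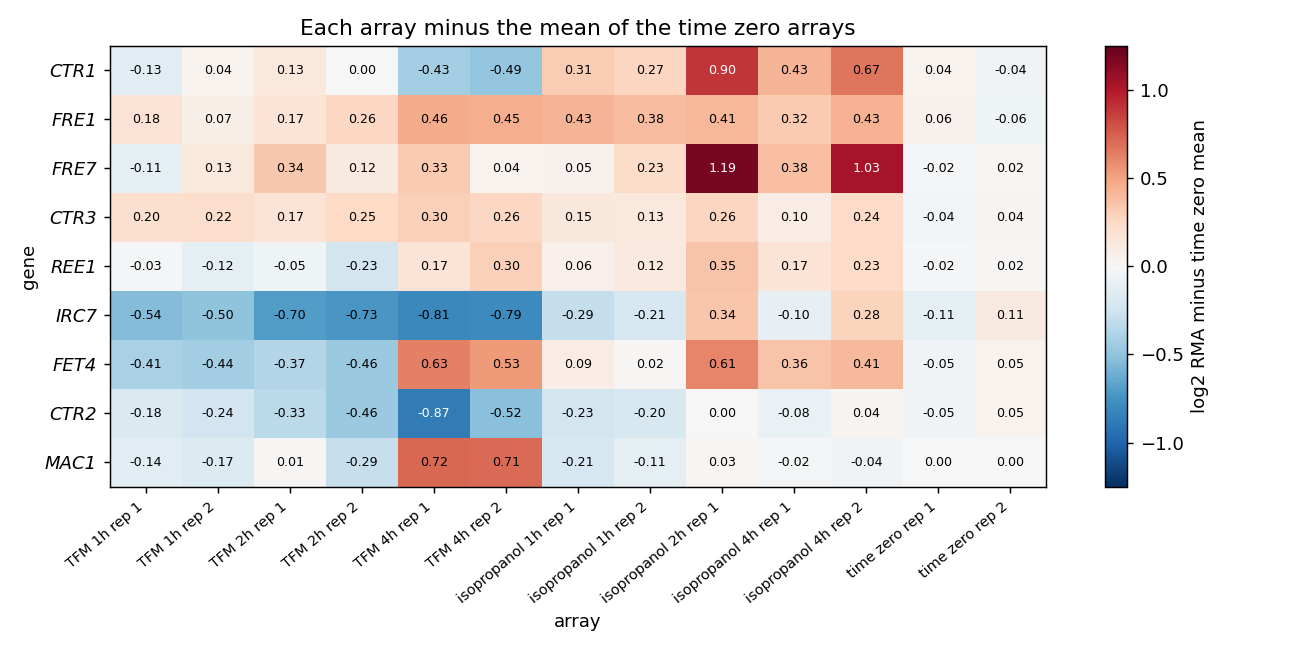
Log2 RMA intensity of each TFM, isopropanol and time zero array minus the time zero mean, with 1 row a gene (the 6 genes and CTR3, REE1 and IRC7) and 1 column an array, coloured from blue (lower) to red (higher) with the value in each cell. CTR1, FRE1, FRE7, FET4, CTR3 and REE1 are above the time zero mean in all 5 isopropanol columns. CTR2 is below that mean in all 6 TFM columns, in those of 1 h of isopropanol and in isopropanol replicate 1 of 4 h.

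TFM was then set against isopropanol of the same hour, the comparison the study was laid out for. The isopropanol arrays also served in choosing the genes, so these values describe the gap between the arms and are not independent of the choice. At 1 h only FET4 passed the threshold, 1 gene of 6 and in the lower direction, where 0.422 percent of all genes were called lower and 1.23 percent in either direction. FET4 differed by -0.48 ± 0.070 log2 units (SE), with limma's adjusted p = 0.0292. CTR1 differed by -0.34 ± 0.095 (adjusted p = 0.112) and FRE1 by -0.28 ± 0.074 (adjusted p = 0.103), and both had TFM arrays below both isopropanol arrays. FRE7, CTR2 and MAC1 differed by -0.13, 0.01 and 0.00. The call on FET4 was lost without any one of the 6 arrays of TFM 1 h, isopropanol 1 h and time zero, with differences of -0.44 to -0.52 and adjusted p of 0.0727 to 0.242, and with a replicate block (adjusted p = 0.0674).

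At 2 h the copper transporter gene CTR1, the reductase gene FRE7 and FET4 were lower in TFM than in isopropanol. They are 3 of the 6 genes, where 5.84 percent of all genes were called lower and 14.1 percent in either direction. All of them were chosen for being higher in isopropanol than at time zero, so that share is not a result about them. The difference was -0.83 ± 0.12 for CTR1 (adjusted p = 0.00324), -0.96 ± 0.24 for FRE7 (adjusted p = 0.0283) and -1.02 ± 0.086 for FET4 (adjusted p = 0.000333). CTR1 and FRE7 were near time zero in TFM at that hour, by 0.07 and 0.23, and above it in isopropanol, while FET4 differed from time zero by -0.41 in TFM and was above it in isopropanol. CTR2 differed by -0.40 (adjusted p = 0.0727), FRE1 by -0.20 (adjusted p = 0.173) and MAC1 by -0.16 (adjusted p = 0.354).

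All 2 h values rest on the single isopropanol array. With the mean of all 3 isopropanol groups as the control the differences of CTR1, FRE7 and FET4 were -0.51, -0.45 and -0.76, and FRE7 was no longer called (adjusted p = 0.0627). FRE7 was also lost without TFM replicate 2 of 2 h (-0.85, adjusted p = 0.103), CTR2 was called without either TFM array of 4 h (adjusted p = 0.0239), and MAC1 without TFM replicate 1 of 2 h (-0.32, adjusted p = 0.0409).

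After 4 h, CTR1, CTR2 and FRE7 were lower in TFM and MAC1 and FET4 were higher, so the gene for the copper sensor and its transporter target differed in opposite directions. CTR1 had 0.498 times its isopropanol intensity, a difference of -1.005 ± 0.095 (adjusted p = 1.47e-05). CTR2 differed by -0.67 ± 0.11 (adjusted p = 0.000427) and MAC1 by 0.75 ± 0.092, or 1.68 times (adjusted p = 7.12e-05). FRE7 differed by -0.52 ± 0.19 (adjusted p = 0.0374) and FET4 by 0.20 ± 0.070 (adjusted p = 0.0295). FRE1 was not called at 0.08 ± 0.074 (adjusted p = 0.372), with a 95 percent interval of -0.09 to 0.25. CTR1, FRE1, FRE7 and FET4 were chosen for being higher in isopropanol than at time zero, and that rise enters these differences. After 4 h of isopropanol they differed from time zero by 0.55, 0.38, 0.70 and 0.38 in that order. After 4 h of TFM they differed from it by -0.46, 0.46, 0.19 and 0.58.

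These 5 of 6 calls stand beside 64.9 percent of all genes called in that contrast, 34 percent lower and 30.9 percent higher, so the share of the 6 genes is not a result about them. FRE7 was not called without isopropanol replicate 2 of 4 h (-0.19, adjusted p = 0.315), TFM replicate 2 of 4 h (-0.37, adjusted p = 0.198) or either time zero array (adjusted p = 0.0518). FET4 was not called without TFM replicate 1 of 4 h (adjusted p = 0.142) or isopropanol replicate 1 or 2 of 4 h (adjusted p = 0.12 and 0.0525), nor with a trended robust prior (adjusted p = 0.0837). With the 3′ minus 5′ difference, which was higher in the TFM arrays of 4 h, as a covariate, CTR1 differed by -0.96 (adjusted p = 0.00172) and MAC1 by 0.99 (adjusted p = 0.000371). In that fit CTR2 (-0.37, adjusted p = 0.0513), FRE7 (-0.49, adjusted p = 0.261) and FET4 (0.21, adjusted p = 0.173) were not called.

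**Figure D3:**
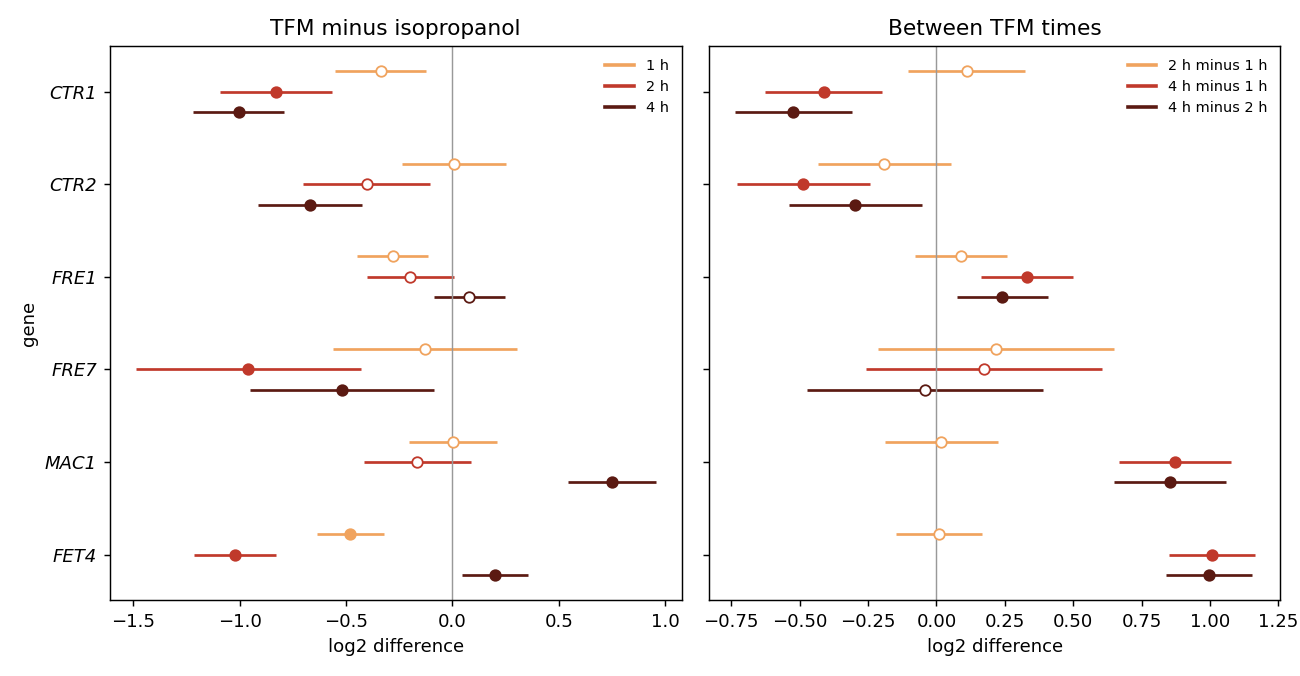
Log2 differences of the 6 genes with 95 percent intervals from the limma fit, for TFM minus isopropanol at 1, 2 and 4 h (left) and between TFM times (right), with filled points for an adjusted p under 0.05 and open points for the rest. CTR1 lies further below 0 at 2 and 4 h of TFM than at 1 h, and MAC1 and FET4 lie near 1 between 4 h and either earlier time.

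Differences within the TFM arm are between arrays outside the contrast that chose the genes. The estimate of spread behind their p-values draws on all 13 arrays, and the genes were chosen with earlier results of these data known. Between 1 and 2 h none of the 6 genes was called, with adjusted p of 0.453 or more, where 0.551 percent of all genes were. Between 1 and 4 h FET4 rose by 1.01 ± 0.070 log2 units (adjusted p = 5.30e-06), or 2.01 times, and MAC1 by 0.87 ± 0.092 (adjusted p = 4.18e-05). FRE1 rose by 0.33 ± 0.074 (adjusted p = 0.0037), while CTR1 differed by -0.41 ± 0.095 (adjusted p = 0.00437) and CTR2 by -0.49 ± 0.11 (adjusted p = 0.00361). FRE7 differed by 0.18, with a 95 percent interval of -0.26 to 0.61 (adjusted p = 0.457). The 5 calls stand beside 59.1 percent of all genes, and each of them held in every alternative setting that gave it a value; the filter on the dimmest 25 percent of genes leaves FET4 out.

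From 2 to 4 h of TFM the same 5 genes were called in the same directions, beside 53.4 percent of all genes. MAC1 rose by 0.85 (adjusted p = 7.24e-05), FET4 by 1.00 (adjusted p = 1.00e-05) and FRE1 by 0.24 (adjusted p = 0.0209), and CTR1 and CTR2 differed by -0.52 (adjusted p = 0.00138) and -0.30 (adjusted p = 0.0432). FRE7 differed by -0.04 (adjusted p = 0.871). The CTR2 call was lost without any array of time zero, of isopropanol 1 h or of TFM at 1, 2 or 4 h other than TFM replicate 2 of 4 h, with adjusted p of 0.0502 to 0.312 and -0.12 without TFM replicate 1 of 4 h. The FRE1 call was lost without TFM replicate 1 of 2 h (0.19, adjusted p = 0.112) or either TFM array of 4 h (adjusted p = 0.0688 and 0.0546).

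The difference between the arms was itself compared between times, again with isopropanol arrays that served in choosing the genes. From 1 to 4 h its change was called for 5 of the 6 genes, beside 49.3 percent of all genes, and from 2 to 4 h for MAC1 and FET4, 2 of the 6, beside 35.1 percent.

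Against time zero, which shares its arrays with the contrast that chose the genes, TFM differences are a description. CTR1 differed by -0.05, 0.07 and -0.46 after 1, 2 and 4 h, CTR2 by -0.21, -0.40 and -0.69 and MAC1 by -0.16, -0.14 and 0.71. FRE1 differed by 0.13, 0.22 and 0.46, FRE7 by 0.01, 0.23 and 0.19 and FET4 by -0.42, -0.41 and 0.58. FRE1 was above time zero in both arms at every hour, and at 4 h by 0.46 in TFM and 0.38 in isopropanol. With the 3′ minus 5′ difference as a covariate, CTR2 differed by -0.09 and -0.45 after 1 and 4 h of TFM. In that fit it differed by -0.08 after 1 h of isopropanol. MAC1 differed there by -0.06 and 0.91 after 1 and 4 h of TFM, and by -0.05 after 1 h of isopropanol.

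**Figure D4:**
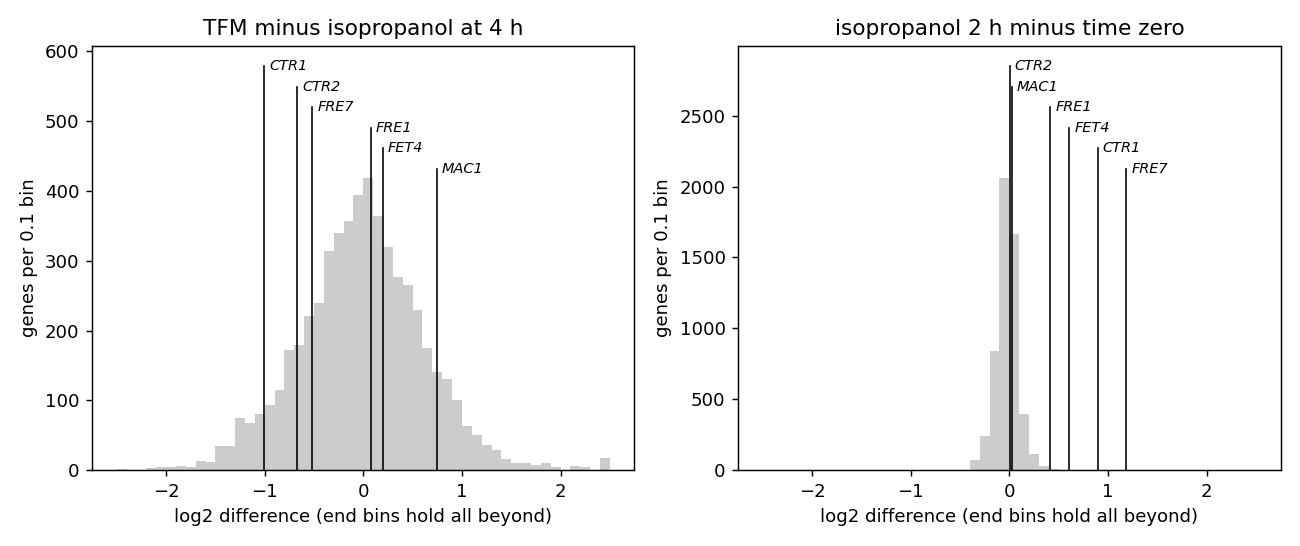
Histograms of the log2 difference over 5449 genes (vertical axis, genes per bin of 0.1) for TFM minus isopropanol at 4 h (left) and isopropanol of 2 h minus time zero (right), with vertical lines at the 6 genes. In the left panel the lines from CTR1 at -1.005 to MAC1 at 0.75 fall inside a wide distribution. In the right panel, whose contrast chose the genes, FRE7, CTR1 and FET4 fall in the upper tail of a narrow one.

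The gene lists around copper uptake are given for TFM minus isopropanol at 4 h, where the median over all genes was -0.01 and 64.9 percent of all genes were called, 30.9 percent higher and 34 percent lower. The counts below are to be read against those shares, and nothing particular to a list is drawn from them. Of the 6 Mac1 targets (CTR1, FRE1 and FRE7 among them) 0 were called higher and 3 lower in TFM than in isopropanol, with a median of -0.24. At 2 h the median was -0.66, against 0.01 over all genes. At that hour 0 were called higher and 4 lower, where 5.84 percent of all genes were called lower. CTR1 and FRE7, among those 4, were chosen on the isopropanol arrays. IRC7 differed by -1.06 (adjusted p = 0.003) at 2 h and -0.89 (adjusted p = 0.000125) at 4 h, and REE1 by -0.49 (adjusted p = 0.0129) at 2 h and 0.03 at 4 h. CTR3 differed by -0.05 at 2 h and 0.11 at 4 h and was not called (adjusted p = 0.709 and 0.185). Of 4 measured genes on the copper detoxification list, which also holds the gene of its regulator Ace1, 3 were called higher and 0 lower at 4 h, with a median of 0.54. Over all genes 30.9 percent were called higher. CRS5, a metallothionein, differed by 1.36 (adjusted p = 5.11e-06), and CUP2, the Ace1 gene itself, by 0.67 (adjusted p = 2.76e-05).

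Copper chaperones and copper delivery factors went both ways, with 3 of 10 called higher and 2 lower in TFM than in isopropanol. That stood beside 64.9 percent of all genes called, and the median was 0.14. CCC2, the pump that loads copper into the secretory pathway, differed by 1.38 (adjusted p = 2.61e-05) and COX23, a mitochondrial protein of copper delivery, by 0.88 (adjusted p = 4.14e-05). SCO2, a factor of cytochrome oxidase assembly, differed by -1.07 (adjusted p = 6.08e-06) and ATX1, the chaperone that hands copper to Ccc2, by -0.60 (adjusted p = 0.00342). Of the 7 other FRE family genes 5 were called higher and 1 lower, beside 30.9 and 34 percent of all genes. Their median was 0.86. FRE4, a ferric reductase gene, differed by 1.78 (adjusted p = 2.89e-05), FRE6, a vacuolar member, by 0.97 (adjusted p = 2.99e-06) and AIM14 by -0.42 (adjusted p = 0.00168).

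Other metal regulons also held calls in both directions at 4 h, where 64.9 percent of all genes were called. Of 14 other metal transporters 6 were called higher and 2 lower in TFM than in isopropanol (median 0.17). MRS3, a mitochondrial iron carrier, differed by 0.84 (adjusted p = 1.75e-05) and SMF1, a manganese transporter, by -1.01 (adjusted p = 7.63e-05). SMF2, another manganese transporter, differed by 0.67 (adjusted p = 9.11e-05) and FET5, a multicopper oxidase of the vacuole, by -0.23 (adjusted p = 0.0167). Of 14 genes of high-affinity iron uptake 6 were called higher and 3 lower (median 0.23). AFT2, an iron regulator, differed by 1.84 (adjusted p = 6.58e-07) and HMX1, a heme oxygenase, by 1.66 (adjusted p = 1.92e-06). The siderophore transporter genes ENB1 and ARN2 differed by -0.66 (adjusted p = 0.000142) and -0.55 (adjusted p = 0.000171).

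FET4 is known to answer to iron, to zinc through Zap1 and to oxygen through Rox1, so those lists were also read, beside the same 64.9 percent. Of 10 zinc regulon genes 3 were called higher and 2 lower in TFM than in isopropanol (median 0.12). IZH1, a membrane protein of zinc homeostasis, differed by 2.47 (adjusted p = 9.95e-07), ZAP1 by 1.20 (adjusted p = 3.69e-06), DPP1 by -0.83 (adjusted p = 3.09e-05) and ZPS1 by -0.23 (adjusted p = 0.0265). Of 11 genes on the hypoxic list, which also holds the repressor gene ROX1, 3 were called higher, ROX1 among them, and 5 lower (median -0.13). OLE1, the fatty acid desaturase, differed by 1.72 (adjusted p = 9.36e-07), ROX1, the repressor itself, by 0.52 (adjusted p = 0.0023), TIR1, a cell wall mannoprotein, by -2.14 (adjusted p = 5.99e-07) and HEM13, a heme synthesis enzyme, by -1.43 (adjusted p = 1.16e-05).

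Pairs of the 6 genes were also compared by their 7 group means, as a description over means that include time zero and the isopropanol groups, whose values chose the genes. Likeness between CTR1, FRE1, FRE7 and FET4 therefore draws in part on the choice itself. CTR1 and FRE7 correlated at 0.83, CTR1 and FRE1 at 0.27, and CTR1 and CTR2 at 0.76, while CTR1 and MAC1 correlated at -0.51. FRE1 and FET4 correlated at 0.70 and MAC1 and FET4 at 0.63. Among 2838 genes whose group means ranged over at least 0.5 log2 units, the pattern most like that of CTR1 was TPM2 at 0.957, followed by GET4 at 0.922 and CRG1 at 0.921. FRE7 was most like CTR1, at 0.834, then YOR376W-A at 0.807 and TIM54 at 0.80. FET4 was most like ICS2 at 0.98, HUA1 at 0.932 and TAF6 at 0.926, and FRE1 was most like INO4 at 0.768, YBL100W-A at 0.748 and ESF1 at 0.734.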

How the data were processed

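The authors deposited log2 RMA values per probe set for 13 arrays of biotin-labelled cRNA, and RMA is named in the submitters' processing notes without a version. Of 5900 probe sets, 184 were controls, 5498 had 1 gene in the platform annotation and 218 none, and 12 symbols were updated. Where a gene had several probe sets (47 genes) the one with the highest mean over the arrays was kept, which left 5449 genes. Arrays were grouped by their titles.

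Log2 values were fitted with limma 3.58.1 in R 4.3.3, with 7 group means over all 13 arrays, 6 residual and 3.52 prior degrees of freedom. Tests were two-sided with Benjamini-Hochberg adjustment over 5449 genes at a threshold of 0.05, and adjusted p-values come from this fit. The fit was tested on simulated data. Precision is limited by the few arrays per group.

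The 6 genes and the 8 gene lists were chosen with earlier results of these data known. All 6 genes are reported whatever their values, with up to 2 genes of each list and direction by the smallest adjusted p at 4 h, CTR3 and REE1, and the 3 genes most like CTR1, FRE1, FRE7 and FET4. Alternatives were other normalizations, a filter on the dimmest 25 percent of genes, a trended robust prior, a pooled isopropanol control, a replicate block, leaving out each array, and an RNA integrity covariate chosen after seeing the data. Sequences and promoter motifs were not analysed here.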

Additional observations from a re-analysis of the deposited data

Results flagged for a closer look

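The difference between TFM and isopropanol changed with time for several of the 6 genes, by a limma test of the change itself over all 13 arrays. The isopropanol arrays in this test also served in choosing the genes, so it is not independent of the choice. From 1 to 4 h it moved by -0.67 log2 units for CTR1 (adjusted p = 0.003), -0.68 for CTR2 (adjusted p = 0.00527), 0.75 for MAC1 (adjusted p = 0.00131), 0.36 for FRE1 (adjusted p = 0.0178) and 0.68 for FET4 (adjusted p = 0.000518). FRE7 moved by -0.39 and was not called (adjusted p = 0.259). From 2 to 4 h it moved by 0.91 for MAC1 (adjusted p = 0.00168) and 1.22 for FET4 (adjusted p = 0.000197), on the single isopropanol array of 2 h. Of all genes, 49.3 percent and 35.1 percent were called in these tests. FRE1 differed between TFM and isopropanol by -0.28 at 1 h and 0.08 at 4 h, neither of them called. FET4 differed by -0.48, -1.02 and 0.20 at 1, 2 and 4 h, so its sign turned between 2 and 4 h. Between 1 and 2 h no gene was called by limma (0 of 5449, with 639 at an unadjusted p under 0.05). These tests of change were not read under the alternative settings.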

How the results depend on the processing

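Of 1482 values of the 6 genes under alternative settings, 1408 kept their direction and their side of the threshold, or moved by less than the replicate spread where there was no test. The count includes the descriptions against time zero, and leaving out an array outside a contrast cannot move its difference. It is therefore no measure of how stable the tested calls are. CTR1 at 2 and 4 h, MAC1 at 4 h, FET4 at 2 h and the 5 calls of TFM 4 h minus 1 h were called in every setting that gave a value. Over all genes, 67 were called at 1 h, and 7 with a replicate block, 118 after a second quantile normalization, 114 after cyclic loess, 144 with the 3′ minus 5′ covariate and 1 to 95 without single arrays. At 2 h 770 were called, and 487 with the block, 1672 with the pooled isopropanol control, 513 with the covariate and 382 to 893 without single arrays. For TFM 2 h minus 1 h 30 were called, and 59 with a trended robust prior, 87 with the covariate and 5 to 30 without single arrays.

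Of the 6 genes, 0 were called at 1 h with the block (FET4, adjusted p = 0.0674) and 0 without the dimmest 25 percent of genes, a filter that leaves FRE7 and FET4 out, and 0 to 1 without single arrays. That filter left 1 call at 2 h and 3 at 4 h. With the covariate 2 were called at 4 h and 3 for TFM 4 h minus 2 h, and without single arrays 3 to 5 in both. The block changed no other call of the 6 genes. Cyclic loess ended the CTR2 call of TFM 4 h minus 2 h (adjusted p = 0.0549), and the covariate ended those of CTR2 (adjusted p = 0.237) and FRE1 (adjusted p = 0.0711). At 2 h the covariate ended the FRE7 call (adjusted p = 0.0715), and CTR2 was called with a trended robust prior (adjusted p = 0.0467) and the pooled control (adjusted p = 0.0283).

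Among the tested comparisons, the values that turned sign were all uncalled. At 1 h CTR2 and MAC1 were -0.014 and -0.018 after quantile normalization, -0.0025 and -0.010 after cyclic loess, -0.00044 and -0.0079 after median centring and -0.012 and -0.015 with the covariate, and without single arrays they ran from -0.022 to 0.040 and from -0.048 to 0.050. FRE7 in TFM 4 h minus 2 h was 0.0085 after quantile normalization and -0.19 to 0.10 without single arrays. In TFM 2 h minus 1 h, without single arrays, MAC1 ran from -0.13 to 0.17 and FET4 from -0.038 to 0.058. The cause of these changes was not tested.

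Replicate numbers did not pair the arrays in any tested comparison of TFM with isopropanol or between TFM times. Deviations of same-numbered arrays correlated at -0.471 to 0.599. The lowest value was between TFM of 2 h and of 4 h, a tested comparison, where same-numbered arrays tended to deviate in opposite directions. Correlations were over 0.1 in 3 of 15 pairs of groups. Those 3 are all the pairs without TFM, namely isopropanol of 1 h and of 4 h with time zero (0.426 and 0.599) and with each other (0.266). The last pair enters the test of change between 1 and 4 h, which was not read with the block. With the block, isopropanol minus time zero was the same at 1 and 4 h, and at 2 h it was 0.90 for CTR1, 0.41 for FRE1, 1.24 for FRE7 and 0.60 for FET4. Groups of 1 or 2 arrays limit all of these tests.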

Other observations

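The 12 measured genes that flank the 6 genes on their chromosomes were read beside them. In TFM minus isopropanol at 4 h 2 of them were called higher and 4 lower, over a range of -0.50 to 0.62 log2 units. Of all genes 64.9 percent were called in that contrast. After 2 h of isopropanol they differed from time zero by -0.20 to 0.27. Over the 6 genes, 4 of which were chosen for being higher in that very contrast, the differences ran from 0.00 for CTR2 and 0.03 for MAC1 to 1.19 for FRE7, so no comparison with the flanking genes is drawn.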
